A study of Mus musculus with 4 samples.

Results

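Chd7 deletion was set against wild type at the open chromatin of 10 mouse genes that mark cells other than the erythroblast: 5 genes of haematopoietic stem and progenitor cells (Meis1, Mecom, Hhex, Cd34 and Flt3) and 5 genes of mast cells (Cpa3, Ms4a2, Fcer1a, Hdc and Mitf). Peaks of 4 ATAC-seq libraries were merged into 15328 regions, and a region belonged to a gene when its middle lay inside the gene's span or when the nearest protein-coding gene end, within 100 kb, was that gene's. This gave 10 member regions, spread over Cd34 with 3, Cpa3, Hhex and Ms4a2 with 2 each and Meis1 with 1. Mecom, Flt3, Fcer1a, Hdc and Mitf had 0 regions in any library.

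The libraries came from Chd7-/- G1ER cells (2 libraries) and wild-type G1ER cells (2 libraries), with 50000 cells in each. G1ER is a mouse erythroblast line that descends from Gata1-null cells and carries GATA1 fused to an estrogen receptor domain, so both genotypes share that background, and both were kept in medium with erythropoietin and stem cell factor and had no treatment. In each genotype the labelled time was 1 h for replicate 1 and 2 h for replicate 2, the range that the labels give for the transposase reaction. Both knockout libraries carry 1 code in their descriptions, so knockout and clone cannot be told apart, and since separate cultures are not stated, the spread between replicates could be technical only.

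In ATAC-seq a transposase cuts DNA that is free of nucleosomes, so a peak marks an accessible stretch such as a promoter or an enhancer. Stem and progenitor genes are switched off as blood cells commit to the red cell lineage, while mast cells and early erythroid and megakaryocyte progenitors share the factor GATA2 and the receptor Kit. Mast cells store histamine, made by histidine decarboxylase, and granule proteases such as carboxypeptidase A3, and release them when the IgE receptor on their surface is cross-linked. CHD7 is a chromodomain helicase that slides nucleosomes, and the series' title names its interaction with Runx1, a transcription factor needed for the first blood stem cells.

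Of the 10 member regions, 5 were called in all 4 libraries, against 56.8% of all merged regions. Knockout-only regions, those with a call in each knockout library and no call in wild type, numbered 1 among the members, inside Cpa3, against 2.71% of all merged regions. Wild-type-only regions, defined the other way round, numbered 0 among the members, against 2.25% of all regions. Of the remaining 4, 1 was called in 3 libraries and 3 in 1 library. By the same rule 11700 of 21887 protein-coding genes (53.5%) had 0 regions, and 35.4% had a region called in all 4 libraries, as did 4 of the 10 members.

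**Figure D1:**
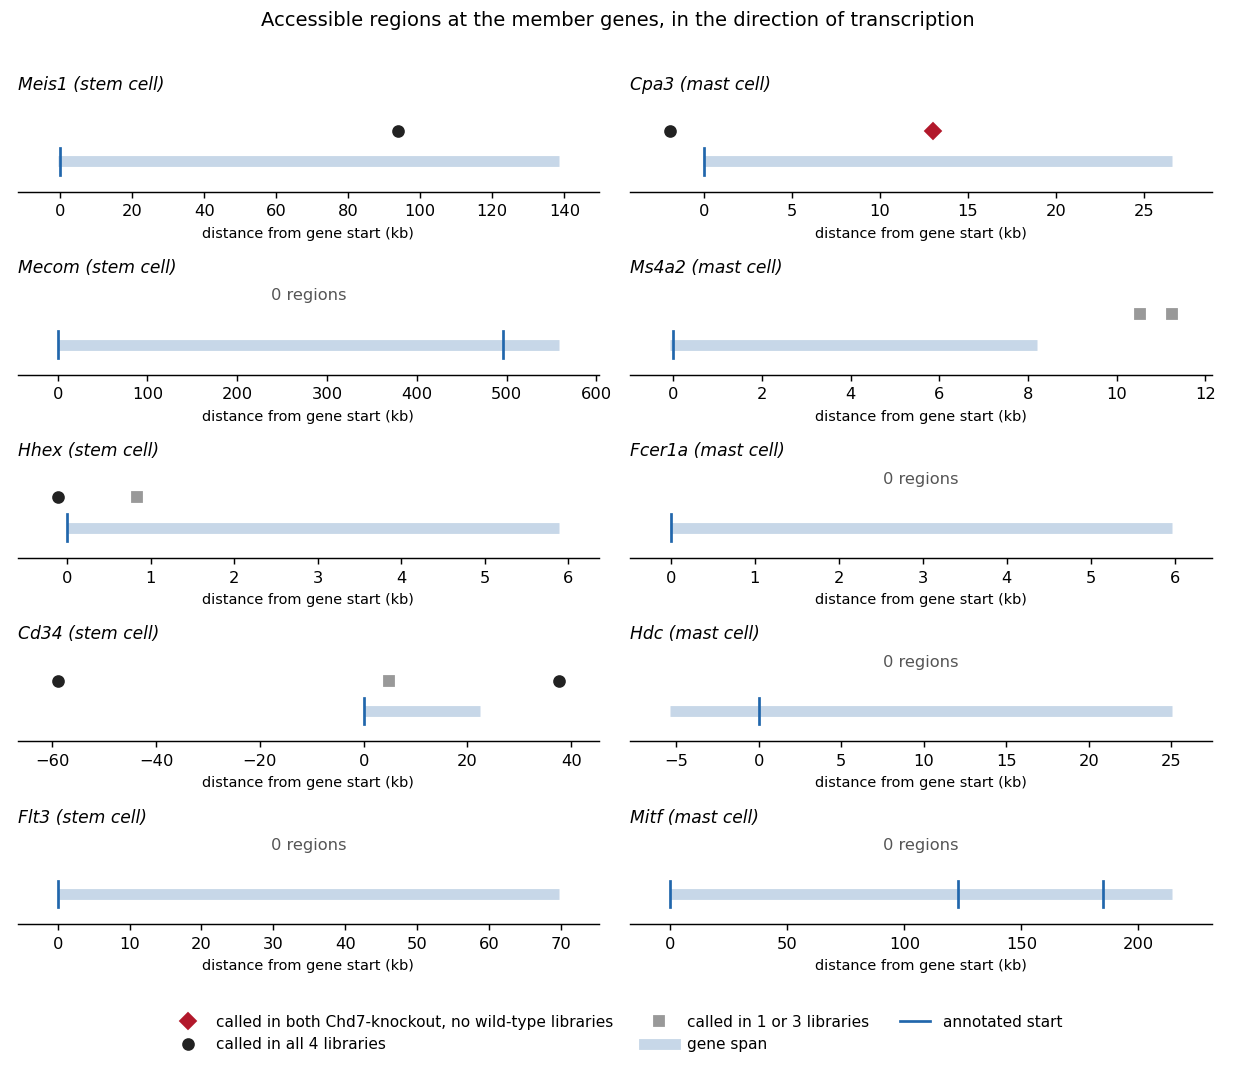
Position of the 10 member regions (markers, at each region's middle) along the 10 genes, in kb from the annotated start in the direction of transcription; bars are gene spans, vertical lines annotated starts, and each panel has its own linear scale. Of the 5 regions called in all 4 libraries, those of Cd34 and Cpa3 lie outside their genes, that of Meis1 inside it, and that of Hhex over the start; the region called in the knockout libraries alone lies inside Cpa3.

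The RefSeq table of promoters (GRCm38.p6) held 13 starts for the 10 genes, and 1 of them lay under a region, that of Hhex. Of all 21263 protein-coding gene starts in the table, 30.9% lay under a region called in all 4 libraries. The 250 bases before the start are printed for Hhex, the open one, and, for contrast, for Cpa3 and Ms4a2, mast cell genes whose starts were closed (under no called region) although regions lay nearby; these last were picked after their values were seen. Capitals mark matches on either strand to GATAA (GATA factors), TGTGGT (RUNX factors), CACGTG and CATGTG (E-boxes of the kind MITF binds), TGACAG (MEIS), CAGGAA (ETS factors) or TGANTCA (AP-1).
Hhex, chr19:37434591-37434840, plus strand: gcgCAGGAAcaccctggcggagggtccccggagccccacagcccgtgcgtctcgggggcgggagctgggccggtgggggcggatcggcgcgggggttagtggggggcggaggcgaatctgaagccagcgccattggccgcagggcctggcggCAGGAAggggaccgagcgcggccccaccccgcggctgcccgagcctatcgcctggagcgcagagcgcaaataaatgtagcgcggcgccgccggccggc
Cpa3, chr3:20242182-20242431, minus strand: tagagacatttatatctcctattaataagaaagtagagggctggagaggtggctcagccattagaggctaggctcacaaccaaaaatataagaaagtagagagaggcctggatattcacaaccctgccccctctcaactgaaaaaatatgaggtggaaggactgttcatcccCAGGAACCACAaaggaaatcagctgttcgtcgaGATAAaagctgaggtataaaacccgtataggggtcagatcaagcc
Ms4a2, chr19:11623720-11623969, minus strand: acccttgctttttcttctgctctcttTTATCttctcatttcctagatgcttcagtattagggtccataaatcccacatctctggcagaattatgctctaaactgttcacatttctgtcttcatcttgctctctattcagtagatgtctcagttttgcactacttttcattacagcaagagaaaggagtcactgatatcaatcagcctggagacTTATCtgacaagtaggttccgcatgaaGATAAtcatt
The Hhex stretch held 32 CpG dinucleotides and 76% G and C, with 2 matches to CAGGAA and none to the other motifs. The Cpa3 stretch held 3 CpG dinucleotides and 44.4% G and C; its GATAA match ended 41 bases before the start, and its CAGGAA match shared a base with a TGTGGT match on the other strand. The Ms4a2 stretch held 1 CpG and 38.8% G and C, with 3 GATAA matches that ended 220, 33 and 6 bases before the start.

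Motif matches were frequent at closed starts as well. GATAA was found before 7 of the 13 member starts, against 20.5% of all protein-coding gene starts and 12.1% of those under a region called in all 4 libraries. TGTGGT was found before 4 of the 13, against 12.4% of all starts, CAGGAA before 3 against 24.5%, TGACAG before 2 against 15.4% and CATGTG before 2 against 10.1%. CACGTG, present before 6.63% of all starts, and TGANTCA, before 6.13%, were found before none of the 13. These shares were not matched for base composition. The median over all starts was 55.6% G and C, while the member starts with GATAA held 36% to 58%. Some starts belong to the same gene, and a match to these letters is a description of the sequence and not a bound site.

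CpG content went with openness across the genome. Of all starts with 0 to 3 CpG dinucleotides in the 250 bases, 1.25% lay under a region called in all 4 libraries, and of those with 20 to 56, 61.0%. Hhex was in the highest range, and 5 member starts (Fcer1a, Ms4a2, Hdc, Cpa3 and 1 start of Mitf) were in the lowest. Starts of Meis1 and Flt3 with 13 CpG dinucleotides each, of Mecom with 14 and of Mitf with 15 were closed in all 4 libraries, in a range (11 to 19) where 51.9% of starts were open.

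**Figure D2:**
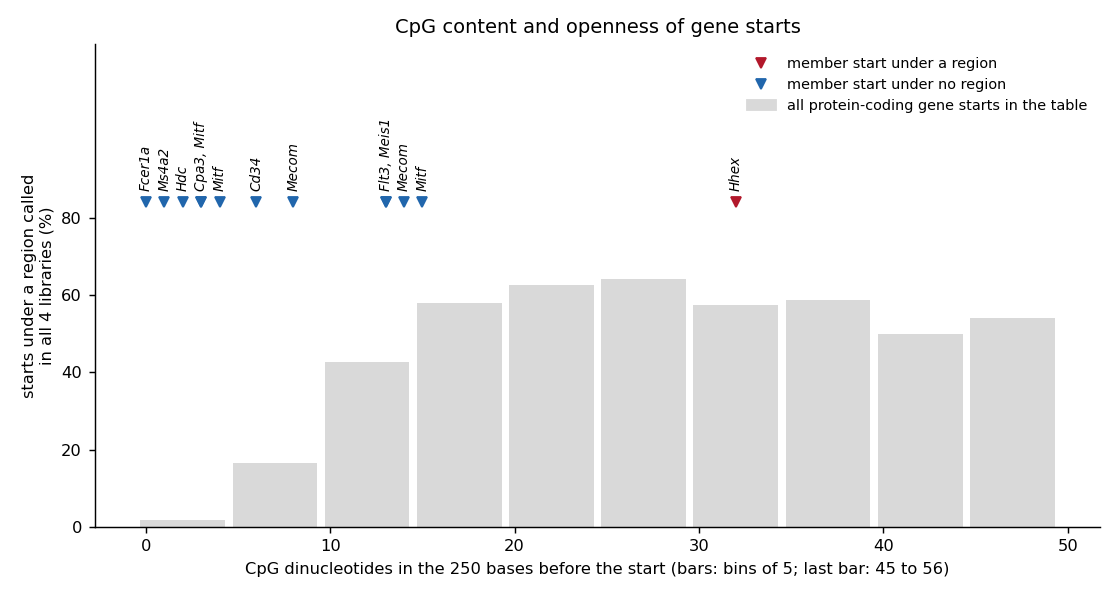
Share of protein-coding gene starts under a region called in all 4 libraries (bars, in percent), by the number of CpG dinucleotides in the 250 bases before the start, with the 13 member starts as triangles at their own count. Hhex, with 32, is the member start under a region; the other 12 have 15 or fewer and lie under none.

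Values for single regions are summit pileups, the number of fragments stacked at the highest point of a peak, recovered from the deposited fold enrichment and p-value. They count fragments only if libraries were not rescaled at peak calling, which the sources used here do not state. The number of reads behind each list was unknown. Its lowest background, which follows depth if reads were extended alike, was 1.04 and 1.01 fragments per base in knockout replicates 1 and 2 and 0.787 and 1.08 in wild-type replicates 1 and 2. The lists held 12443 and 11376 nuclear peaks in knockout and 11084 and 12043 in wild type, with median pileups of 20 and 19 fragments in knockout against 19 and 22 in wild type. Chd7 had 0 regions in any library, which leaves the genotype labels unchecked.

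The number of member regions called was 7 and 6 in knockout replicates 1 and 2, against 8 and 7 in wild-type replicates 1 and 2. The means were 6.5 ± 0.707 in knockout and 7.5 ± 0.707 in wild type (SD, n = 2 each), with a difference of −1 at each labelled time. The direction turned when −log10 q of at least 5 was required, with 5 and 6 regions in knockout against 4 and 6 in wild type and a difference of 0.5. The difference did not exceed what relabelling the libraries gives (exact two-sided permutation p = 0.667, where 2 in 6 is the smallest share that 2 against 2 can reach).

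Meis1, a homeodomain factor that sustains stem cells, had 1 region, deep inside the gene and 93.8 kb from its start (chr11:18924946-18925328). Its summit held 18 and 12 fragments in knockout replicates 1 and 2, against 9 and 12 in wild-type replicates 1 and 2. Knockout replicate 1 stood above the other libraries, and the genotypes met at 12. After each library was centred on its median over the tested regions, the log2 difference of knockout minus wild type was 0.54 ± 0.20 (SE), 0.81 at 1 h and 0.27 at 2 h. It did not pass over all regions (adjusted p = 0.495, limma). The summits of the 4 libraries lay within 40 bp of each other, and the fold enrichment ranked between the 12.1 and 67.1 percentiles of its own lists.

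Hhex, a homeobox gene used in early blood and endothelial progenitors, was the member with an open start (chr19:37434356-37435099). Its summit held 14 and 15 fragments in knockout replicates 1 and 2, against 11 and 19 in wild-type replicates 1 and 2. The knockout values lay between the wild-type values. The log2 difference was 0.08 ± 0.22 (SE), with adjusted p = 0.957 by limma, and its sign turned to −0.15 when libraries were scaled by their lowest background. A further region 0.8 kb into the gene (chr19:37435535-37435820) was called in wild-type replicate 2 alone, with 11 fragments, at the 1.55 percentile of that list.

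Mecom, which encodes the zinc finger factor EVI1, spans 558.5 kb and had neither a region inside nor 1 linked to an end. The region closest to it, 92.3 kb before the gene, lay at an end of Mynn and was called in all 4 libraries. Both annotated starts of Mecom were closed.

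Cd34, the sialomucin used to enrich stem and progenitor cells, had regions on either side of a closed start. The distal upstream region, 59 kb before the start (chr1:194879596-194880124), held 9 and 12 fragments in knockout replicates 1 and 2, against 10 and 14 in wild-type replicates 1 and 2. The genotypes overlapped, and the log2 difference was −0.09 ± 0.23 (SE; adjusted p = 0.949, limma). The region 37.7 kb after the start and 15192 bp beyond the far end of the gene (chr1:194976182-194976786) held 23 and 17 fragments in knockout replicates 1 and 2, against 12 and 17 in wild-type replicates 1 and 2. Knockout replicate 1 was highest and wild-type replicate 1 lowest, while the replicates labelled 2 h were equal. The log2 difference was 0.52 ± 0.20 (SE), 0.77 at 1 h and 0.27 at 2 h, and did not pass (adjusted p = 0.497, limma). A region 4.9 kb into the gene (chr1:194943631-194943830) was called in wild-type replicate 1 alone, with 12 fragments.

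Flt3, a receptor tyrosine kinase of multipotent and lymphoid progenitors, had 0 regions in its 69.7 kb. The closest region lay 29.5 kb before its span, was linked to Pan3 and was called in 3 libraries.

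Cpa3, which encodes the granule protease carboxypeptidase A3, held the strongest of the member regions. The region 1.9 kb before its start (chr3:20243802-20244351) had 27 and 26 fragments in knockout replicates 1 and 2, against 32 and 29 in wild-type replicates 1 and 2. Before centring, both knockout values were below both wild-type values, which made it 1 of 5 tested member regions, against 18.7% of the 8704 regions tested in all; the converse held for 0 of 5, against 9.21%. The means were 26.5 ± 0.707 fragments in knockout and 30.5 ± 2.12 in wild type (SD, n = 2 each). After centring, the log2 difference was −0.11 ± 0.20 (SE; adjusted p = 0.924, limma), −0.35 at 1 h and 0.12 at 2 h, and the genotypes overlapped. Centred values of both knockout libraries lay below both wild-type values at 0 of the 5 regions, against 17.3% of all tested, and above them at 2 of the 5, those of Meis1 and of Cd34 at 37.7 kb, against 21.4%. Its fold enrichment lay between the 65.9 and 86.6 percentiles of its own lists, the highest range among the member regions, and its summits fell within 51 bp.

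The second Cpa3 region lay 13 kb into the gene (chr3:20228994-20229392) and was the member region called in knockout alone. It held 8 and 11 fragments in knockout replicates 1 and 2, and no peak was called there in either wild-type library. These were weak peaks, at the 5.95 and 29.4 percentiles of their lists by fold enrichment, with a deposited −log10 q below 5 in replicate 1 and of 5.96 in replicate 2. The lowest summits in the wild-type lists held 6 and 7 fragments in replicates 1 and 2, so a wild-type signal weaker than that was not detectable. The region left the class when −log10 q of at least 5 was required and when the lists were reduced to equal length.

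Ms4a2, the beta chain of the IgE receptor, had regions beyond its far end. The one 11.2 kb after the start (chr19:11612271-11612688) held 14 fragments in knockout replicate 1 and was not called in knockout replicate 2, against 10 and 15 fragments in wild-type replicates 1 and 2. Knockout replicate 1 lay between the wild-type values. A neighbouring region 10.5 kb after the start (chr19:11613097-11613296) was called in wild-type replicate 1 alone, with 10 fragments.

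Fcer1a, the alpha chain of the IgE receptor, had 0 regions of its own. A region called in all 4 libraries lay 4.4 kb from its span and was linked to an end of Olfr1404. That region held 22 and 13 fragments in knockout replicates 1 and 2, against 11 and 20 in wild-type replicates 1 and 2. Hdc, histidine decarboxylase, had 0 regions, and the closest, 12 kb away and linked to Gabpb1, was called in knockout replicate 2 alone with 9 fragments. Mitf, the factor that mast cells and pigment cells need, lay furthest of the members from open chromatin. Its 214.4 kb held 0 regions, its 3 starts were closed, and the closest region was 596.1 kb away, at an end of Arl6ip5. Of all protein-coding genes, 6.14% lay at least that far from a region, against 24.6% for the distance of Mecom.

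**Figure D3:**
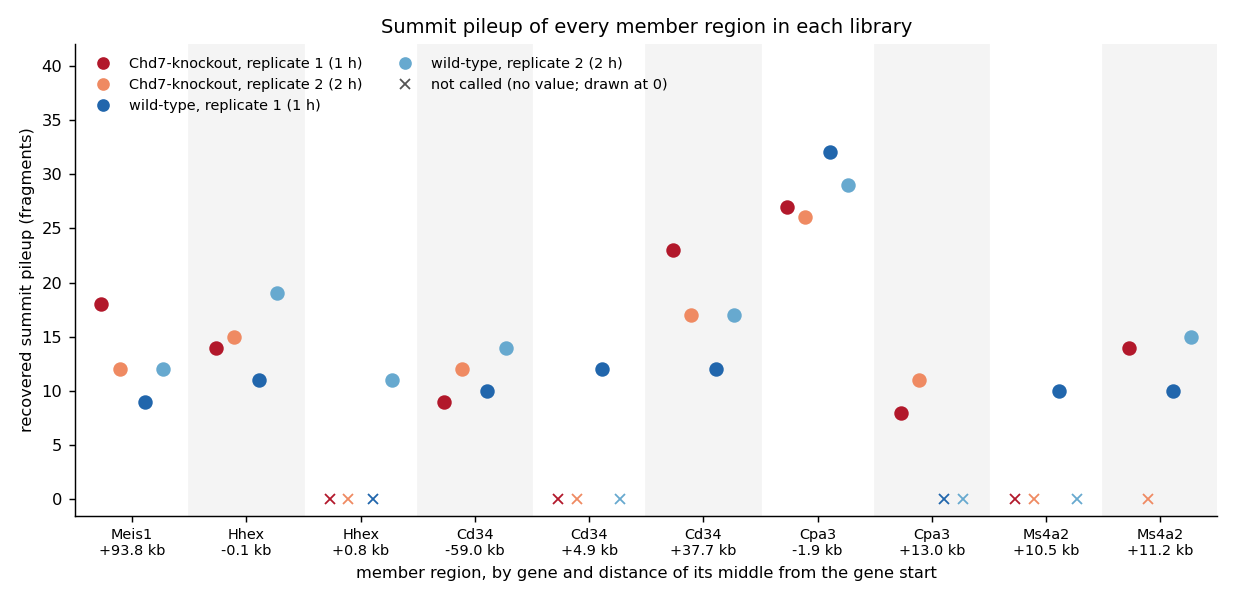
Recovered summit pileup (fragments) of the 10 member regions in each library, knockout left of wild type; points are single libraries and crosses mark a library with no called peak. The region 1.9 kb before Cpa3 is the highest, between 26 and 32 fragments, and the region 13 kb into Cpa3 has points, at 8 and 11, in the knockout libraries alone.

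In the comparison of summit pileups over all 8704 regions called and recovered in all 4 libraries, 0 regions were higher and 0 lower in knockout at an adjusted p below 0.05 (limma; 0% of regions in each direction), and 0 of the 5 member regions passed. Unadjusted, 757 regions (8.7%) had p below 0.05, among them the regions of Meis1 and of Cd34 at 37.7 kb. The median log2 difference was 0.08 over the 5 member regions, 3 above 0 and 2 below (the Hhex value falls below 0 under scaling by the lowest background), and 0.02 over all tested regions. Member regions were of modest height: the median of their mean pileup was 14.8 fragments, against 25 fragments over all tested regions. Heights were not matched for position. Of the 10 member regions 20% lay within 1 kb of a gene end, against 50.6% of all merged regions.

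**Figure D4:**
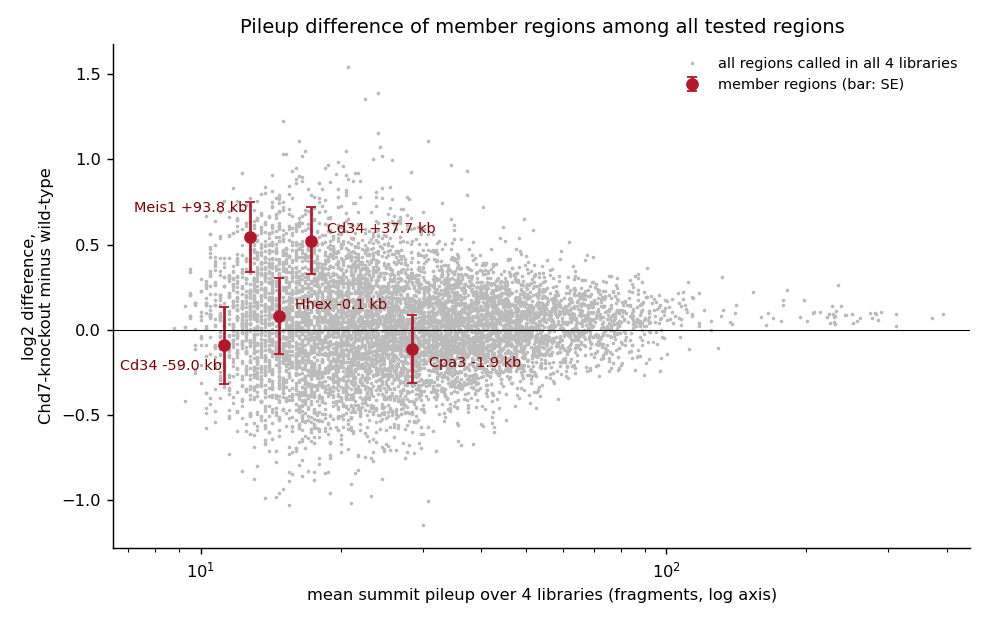
Log2 difference in centred summit pileup, knockout minus wild type, against mean pileup (log axis) for the 8704 regions called in all 4 libraries (grey) and the 5 member regions among them (red, bars are SE). The member regions of Meis1 and Cd34 at 37.7 kb lie at 0.54 and 0.52, and the other 3 between −0.11 and 0.08.

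Regions of wider gene lists were counted in the same way. Of 28 further stem and progenitor genes, 13 had a region, against 10187 of all 21887 protein-coding genes. Their 46 regions were called in all 4 libraries in 20 cases (43.5%), against 56.8% of all merged regions. Calls in both knockout libraries alone numbered 0, against 2.71% of all merged regions. Both wild-type libraries alone held a call in 1 case, against 2.25%. That region was linked to Myb, a transcription factor of progenitor growth, at chr10:21196648-21196922, with no call in knockout and 9 and 17 fragments in wild-type replicates 1 and 2. Another region linked to Myb (chr10:21221289-21222036) went the other way, with 23 and 20 fragments in knockout against 15 and 18 in wild type and a log2 difference of 0.45 ± 0.18 (SE; adjusted p = 0.528, limma). A region with its middle 101 bp outside the span of Myb (chr10:21160842-21161328) held 9 fragments in knockout replicate 1 and had no call in knockout replicate 2. In wild type it held 12 and 12. Of 33 further mast cell genes, 32 were in the gene table and 17 had a region. Their 33 regions included 19 called in all 4 libraries (57.6%), 1 in both knockout libraries alone and 0 in both wild-type libraries alone. The shares of all genes and regions are those given above for the stem list. The 1 lay inside Cd200r3, a receptor of the CD200 receptor family, at chr16:44951667-44952072, with 13 and 9 fragments in knockout and no call in wild type. A further region inside Cd200r3 (chr16:44962777-44963220) went the other way, with 19 and 15 fragments in knockout against 24 and 33 in wild type and a log2 difference of −0.62 ± 0.19 (SE; adjusted p = 0.387, limma). The other two regions of that gene were called in all 4 libraries, with log2 differences of 0.34 and −0.01. Among granule protease genes of the list, Cma1, which encodes a chymase, was linked to a region 18809 bp from its nearer end (chr14:55922367-55922917). That region held 18 and 15 fragments in knockout against 17 and 23 in wild type. Tpsb2, Mcpt4, Mcpt8 and Ctsg had 0 regions, as did the stem cell genes Procr, Hlf and Slamf1. In the pileup comparison 0 of 20 tested regions of the stem list and 0 of 19 of the mast cell list passed, with median log2 differences of 0.02 and −0.04.

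Kit and Gata2 belong to both wider lists. At the start of Kit, the stem cell factor receptor (chr5:75574657-75575115), the summit held 14 and 10 fragments in knockout replicates 1 and 2, against 21 and 20 in wild-type replicates 1 and 2. Before centring, both knockout values were below both wild-type values, as at 18.7% of the 8704 regions tested in all. The centred log2 difference at Kit was −0.66 ± 0.20 (SE) and did not pass over all regions (adjusted p = 0.387, limma). A region inside Kit (chr5:75579741-75579940) was called in knockout replicate 1 alone, with 10 fragments. A region 4102 bp from Gata2 (chr6:88189593-88189985) held 18 and 19 fragments in knockout replicates 1 and 2, against 12 in wild-type replicate 1 and no call in wild-type replicate 2. A neighbouring region 3176 bp from Gata2 (chr6:88190490-88190941) was called in wild-type replicate 2 alone, with 15 fragments. As a check of the labelled cell type, 15 of 18 erythroid genes had a region, against 10187 of all 21887 protein-coding genes. Among the 15, Gata1, Klf1, Epor, Tfrc and Alas2 each had a region called in all 4 libraries. Hbb-bt, Ank1, Epb42, Ermap and Trim10 had regions, but 0 of these were shared by all 4 libraries. Hba-a1, Hbb-b1 and Slc4a1 had 0 regions. The 25 erythroid regions included 13 called in all 4 libraries (52%), against 56.8% of all merged regions. Both wild-type libraries alone held 1, that of Epb42 (9 and 12 fragments), and both knockout libraries alone held 0. Of other lineages, 5 of 9 megakaryocyte, 3 of 12 granulocyte and macrophage and 1 of 10 lymphoid genes had a region.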

How the data were processed

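ATAC-seq peaks of 4 libraries were used as deposited, 1 list per library. The submitters' processing notes name Bowtie2 2.2.1 and MACS2 2.1.0 without their roles, and the peak names give GRCm38, the build of all positions, printed from base 1. Not given in the sources used here were the calling threshold, control, read shift and duplicate handling. The deposited score is about 10 times the −log10 q value, the deposited fold enrichment is the authors' ratio of pileup to local background at the summit, and the deposited −log10 p and −log10 q values are the authors' own.

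Nuclear peaks (chromosomes 1 to 19, X and Y) were kept (2 mitochondrial peaks per library were left out) and merged where they overlapped or touched. Genes came from RefSeq (GRCm38.p6). Taking fold enrichment as (pileup + 1)/(background + 1), and libraries as not rescaled at calling, together with the Poisson p-value, gave the whole-number pileup of 99.99% of peaks in each library, with a tolerance of 0.001 in −log10 p. In wild-type replicate 1, 16 peaks were solved again with the background held at or above its most frequent value. The strongest peak of a region stood for it in each library, and an uncalled region has no value. Values of log2(pileup + 1) were centred by library on the median and compared in limma 3.58.1 (R 4.3.3), with Benjamini-Hochberg adjustment over 8704 regions. Scripts ran in Python 3.11.15 with numpy 2.4.6, pandas 2.3.3 and scipy 1.17.1. Pileup recovery and the limma comparison were tested on simulated data, and merging was checked on the deposited peaks against bedtools.

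Groups and replicate numbers came from sample titles. The members, the gene lists and the tests were chosen with earlier results of these data known. Named were all 10 members with every region, Kit and Gata2, and genes of the wider lists with a region called in 1 genotype alone; other names were chosen after their values were seen. Tpsab1 was not among the table's protein-coding genes. Alternatives were stricter thresholds, lists of equal length, summit windows, coverage of a region, other link rules, other scalings, pseudocount and filter, a replicate block and leaving out each library. Intervals are not given for counts of regions, since read depth was unknown. The sequence under the distal regions was not used here.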

Additional observations from a re-analysis of the deposited data

Results flagged for a closer look

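At 3 member regions the difference between knockout and wild type had opposite signs at the labelled times of 1 h and 2 h, with 1 library of each genotype at each time, so the difference was not tested. At the region 59 kb before Cd34 the centred log2 difference was −0.249 at 1 h and 0.0666 at 2 h. At the region 1.9 kb before Cpa3 it was −0.348 at 1 h and 0.121 at 2 h. At the start of Hhex it was 0.211 at 1 h and −0.0489 at 2 h. At the regions of Meis1 and of Cd34 at 37.7 kb the sign was the same at both times.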

How the results depend on the processing

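The 5 member regions called in all 4 libraries fell to 2 when −log10 q of at least 5 was required. Requiring this of the calling genotype only gave the same count, but for this class both settings require it in all 4 libraries. The count fell to 2 when peaks had to cover 50% of the region and to 1 when members were taken by gene span alone. Leaving out a library, which removes a required call, gave 5 to 6. The knockout-only count of 1, at Cpa3, was 0 under both q thresholds and with lists of equal length, and 1 with any 1 library left out. The wild-type-only count of 0 became 0 to 2 when a library was left out, which removes a required absence or a required call: 1 at Ms4a2 without knockout replicate 1, 1 at Hhex without wild-type replicate 1 and 2 without wild-type replicate 2, at Cd34 and Ms4a2. The difference of −1 in member regions per library reversed to 0.5 with −log10 q of at least 5 (exact permutation p = 1).

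In the pileup comparison, 0 regions higher and 0 lower in knockout became 5 and 65 when libraries were scaled by their lowest background, which moved the median log2 difference of all regions to −0.21, 15 and 2 with a prior variance that followed the mean, and 2 and 0 with the replicate block; no member region was among them. Same-numbered libraries share a number and a labelled time, and their deviations did not move together (r = 0.00 across 8704 regions, which are not independent replicates). Adjusted p-values of the 5 member regions were between 0.440 and 0.987 over the alternatives. The directions at Meis1 and Cd34 at 37.7 kb held in all 9 alternatives run for them; the filter on a mean pileup of at least 20 left out every member region but that 1.9 kb before Cpa3. Reversed were the region 59 kb before Cd34 (−0.365 to 0.183 with a library left out), the region 1.9 kb before Cpa3 (−0.289 to 0.0623; above 0 without wild-type replicate 1) and the start of Hhex (−0.153 by lowest background, −0.180 to 0.342 with a library left out). In fits without a library the lone library of a genotype is assumed to vary like the other genotype. The causes were not tested. With pileups of 8 to 32 fragments, small differences were not detectable.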
